A study of Mus musculus with 9 samples.

Results

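Malat1, Neat1, Gas5, Snhg1, Snhg12 and Dancr are long noncoding RNAs (lncRNAs). The first pair are nuclear transcripts, abundant in some of the groups read here, and the other 4 host small nucleolar RNAs (snoRNAs) in their introns. These 6 members were named by symbol and matched to Ensembl gene identifiers. Of the 46078 genes listed for the cultured cells, 5 were members, and of the 38293 genes listed for muscle tissue, 4 were members. Snhg1 itself in all libraries and Dancr in muscle tissue were not analysed here. Members were chosen by name, but Dancr was selected on its measured rise with lactate in these same libraries. The nuclear RNAs are called abundant from their levels, which does not hold for Neat1 in MB. Dancr and the levels are therefore given as descriptions with no test.

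RNA was sequenced from 9 libraries of C57BL/6 mouse skeletal muscle. In culture, control primary myoblasts (MB, n = 2), which are proliferating muscle precursors, received PBS alone. Lactate-treated MB (n = 2) received 10 mM sodium-L-lactate in PBS, and myotubes (MT, n = 2) were MB differentiated for 3 days into fused muscle cells, with PBS and no lactate. The other group was whole gastrocnemius muscle (GAS, n = 3) from otherwise untreated female mice (C57Bl6/J in the study's methods) aged 8 to 12 weeks. Per the methods, these mice were anesthetized with ketamine and xylazine shortly before sacrifice. The tissue holds vessel, blood, fat and nerve cells beside its fibres. GAS RNA was read from poly(A)-selected libraries, whereas the cultured cells were read with Smart-seq2, which copies 5 ng of total RNA from an oligo(dT) primer and amplifies the cDNA, so tissue and library protocol cannot be told apart. No label says that the cultures came from separate animals, so a p-value measures the spread between these libraries only. In whole libraries, fewer cells of a type and less RNA per cell cannot be told apart either.

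Malat1 is retained in nuclear speckles, the storage sites of splicing factors, and its 3′ end is made by RNase P cleavage and held by a triple helix rather than by a poly(A) tail. Neat1 is the scaffold of paraspeckles and has a short polyadenylated form and a long form that ends like Malat1. Gas5, Snhg1, Snhg12 and Dancr belong to another class, in which the introns carry snoRNAs that guide modification of ribosomal RNA. Several spliced host RNAs begin with a pyrimidine tract as ribosomal protein mRNAs do (5′ TOP) and are removed by nonsense-mediated decay when they are translated.

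On the mm10 build Malat1 (ENSMUSG00000092341) lay at chr19:5795690-5802672 on the minus strand, with a longest transcript of 6983 bases in 1 exon. Neat1 (ENSMUSG00000092274) lay on the same strand at chr19:5824708-5845478, and its longest transcript had 20771 bases, again in 1 exon. The longest run of A in the Malat1 transcript had 12 bases and ended 298 bases before the annotated 3′ end. The annotated end was not set against the RNase P cleavage site, so this is not a distance from the mature 3′ end. That stretch, chr19:5795958-5796029, is shown 5′ to 3′ with the run in capitals because both library protocols start from runs of A.
Malat1: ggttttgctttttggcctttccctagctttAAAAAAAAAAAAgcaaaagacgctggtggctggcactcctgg

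Gas5 (ENSMUSG00000053332, chr1:161034422-161038539, plus strand) had 10 annotated snoRNAs inside its span. Snhg1 (ENSMUSG00000108414, chr19:8723475-8726443, plus strand) had 8, Snhg12 (ENSMUSG00000086290, chr4:132308623-132311024, plus strand) had 5 and Dancr (ENSMUSG00000106943, chr5:74093060-74095406, plus strand) had 1. Both Snord80 in Gas5 and Snora16a in Snhg12 are annotated as overlapping pairs of rows. Box C (TGATGA, searched in the first 20 bases) and box D (CTGA, searched in the last 20) are the protein-binding motifs of C/D snoRNAs, and both were found in 8 of 10 Gas5, 6 of 8 Snhg1 and 1 of 5 Snhg12 snoRNAs. An intronic C/D snoRNA of each of these hosts is given here with both boxes in capitals, from the transcript annotation (GENCODE M21) on the host's strand. Gm25855 and Gm23246 are given because the Snhg1 snoRNAs were the ones with counts in the cultured cells.
Gm25855 (Snhg1, chr19:8723993-8724064): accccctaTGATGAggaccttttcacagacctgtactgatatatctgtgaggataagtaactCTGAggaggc
Gm23246 (Snhg1, chr19:8725594-8725660): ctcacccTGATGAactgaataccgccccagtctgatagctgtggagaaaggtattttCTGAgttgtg
Snord47 (Gas5, chr1:161038082-161038158): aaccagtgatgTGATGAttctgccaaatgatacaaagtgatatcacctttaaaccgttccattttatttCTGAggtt
Snord99 (Snhg12, chr4:132310691-132310764): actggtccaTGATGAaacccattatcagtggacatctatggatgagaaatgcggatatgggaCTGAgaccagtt

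The start sites of the hosts bear on their class. In RefSeq promoter sequence (GRCm38.p6), 60-base windows around the start were searched on the transcribed strand for a run of at least 5 C or T bases that begins with C and overlaps the 10 bases on either side of the start. Such a run, in capitals, was found at 1 of the Gas5 starts (chr1:161035136-161035195) and at the Snhg12 start (chr4:132308648-132308707), and the windows of Snhg1 (chr19:8723457-8723516), Dancr and the other Gas5 start held no match. The same rule was met by 35.8% of 32851 mouse promoters, so the match is a description of these letters.
Gas5: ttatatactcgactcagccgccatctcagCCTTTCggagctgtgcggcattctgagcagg
Snhg12: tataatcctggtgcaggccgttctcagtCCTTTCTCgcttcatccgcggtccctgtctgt
Snhg1: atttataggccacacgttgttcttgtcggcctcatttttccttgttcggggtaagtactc

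The libraries held 19307793 to 19941574 counts in GAS and 5198247 to 10839516 in the cultured cells. Of the marker genes, 6 of 6 for MT were higher in MT than in MB, as were 5 of 5 tested for GAS, 2 of 5 for MB were lower, and Ckm, Acta1 and Myh4 were abundant in GAS. MT replicate 1 stood apart, with 28599 genes that had a count against 15548 to 17965 in the other cultured libraries. All 9 markers of endothelial, immune, fat, fibroblast, nerve and red blood cells had a count there and summed to 23.5 CPM (counts scaled to a common library total, with TMM factors), against 1.23 to 2.54 CPM in the other cultured libraries. In MB replicate 1 and lactate-treated MB replicate 1, the ribosomal RNA gene CT010467.1 took 9.20% and 13.8% of counts, against 0.131% to 0.575% in the other cultured libraries. The part of these libraries in the results below was not tested, and values without each of them are given where they matter.

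Malat1 and Neat1 were the members that passed the test between MT and MB, and both were higher in MT. Malat1 had 1670 and 708 CPM in the MT libraries and 41.9 and 138.6 CPM in the MB libraries. Every MT value lay above every MB value, as for 32.9% of all genes tested, although MT replicates differed 2.36-fold and MB replicates 3.31-fold. The log2 fold change in MT over MB was 3.80 (SE 0.74), a 13.9-fold difference, with an adjusted p of 0.00663 (edgeR quasi-likelihood test, Benjamini-Hochberg over 12921 genes). Without MT replicate 1 the log2 fold change was 2.95, and without MB replicate 2 it was 4.68.

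Neat1 had 104.1 and 123.1 CPM in MT and 17.3 and 28.2 CPM in MB, again with no overlap. Its log2 fold change was 2.33 (SE 0.45), 5.04-fold, with an adjusted p of 0.00634 by the same test. Leaving out a library gave log2 fold changes of 1.97 to 2.56. Among the 4 members tested, 2 were therefore called, both higher. The rule was an adjusted p under 0.05 with a log2 fold change over 0.5 in size. Over all genes 17.9% were called, 11% higher and 6.86% lower, and the median log2 fold change was 0.07.

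**Figure D1:**
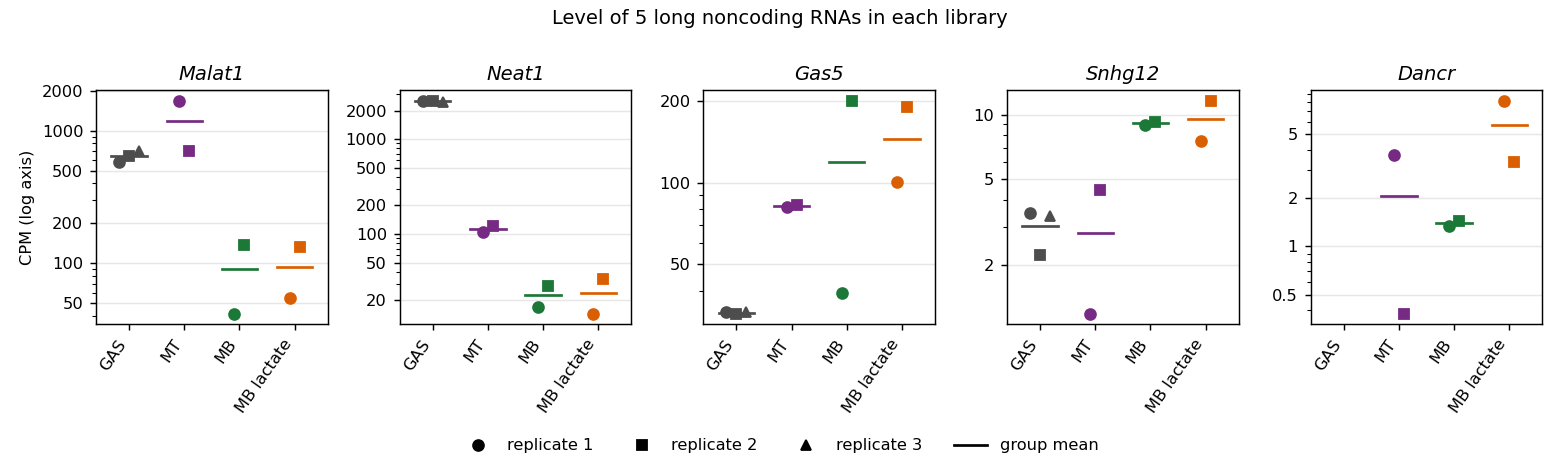
Level of the 5 members analysed in each library, in CPM on a log axis that differs between panels, with a symbol for each replicate number and a line at the group mean. Malat1 and Neat1 in MT lie above all MB libraries, Gas5 in MB spans 39.3 to 200.5 CPM, and Dancr was not analysed in GAS.

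The snoRNA hosts gave no call between MT and MB. Gas5 had 81.6 and 83.2 CPM in MT, which agreed closely, and 39.3 and 200.5 CPM in MB, so both MT libraries lay between the MB libraries. Its log2 fold change was -0.49 (SE 0.61, adjusted p = 0.625, edgeR), and it turned to 0.91 without MB replicate 2. The 5.10-fold gap between the MB replicates was the largest of the 5 members in that group, and was larger than the difference between the group means.

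Snhg12 had 1.19 and 4.45 CPM in MT and 8.95 and 9.28 CPM in MB. Both MT libraries lay below both MB libraries, as did 29.2% of all genes tested. The log2 fold change was -1.75 (SE 0.78) and did not pass over all genes (adjusted p = 0.149, edgeR). Without MT replicate 2 it was -3.02 (adjusted p = 0.0358), and without MT replicate 1 it was -1.10 (adjusted p = 0.632). These values rest on 16 and 35 counts in MT.

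Dancr was low in every cultured library. It had 50 counts in MT replicate 1 and 3 in MT replicate 2, which were 3.72 and 0.38 CPM, and 11 and 12 counts in the MB libraries, which were 1.35 and 1.45 CPM. The MT values lay on either side of MB. The described log2 fold change was 0.64 (SE 1.05) and went to -1.89 without MT replicate 1. Gm43416, which overlaps Dancr on the opposite strand, had 51 counts in MT replicate 1 and 0 in the other 5 cultured libraries, and the strand setting of the counting is not given in the sources used here.

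Snhg1 can be followed only through its hosted snoRNA rows. Their 8 rows summed to 5 and 12 counts in MT, 14 and 75 in MB, and 11 and 86 in lactate-treated MB. In CPM these were 0.37 and 1.53 in MT, 1.72 and 9.04 in MB, and 1.93 and 15.3 in lactate-treated MB. Both replicate 2 MB libraries were the highest and MT replicate 1 the lowest, and all 8 rows had a count in MB replicate 2 and lactate-treated MB replicate 2 but 4 in MT replicate 1. Gm25855 had 1 and 2 counts in MT against 2 and 14 in MB, and Gm23246 had 0 and 1 against 1 and 15. Reads of a snoRNA and of unspliced host RNA cannot be told apart in such rows. The 10 Gas5 snoRNA rows and the Dancr row (Snora26) had 0 counts in every library that listed them, and the Snhg12 rows had 0 in the cultured cells. A count of 0 allows up to 3 counts, or 0.223 to 0.533 CPM in a cultured library, and this limit covers counting error only. Annotated exons held 3760 bases in Gas5, and 2402 and 2347 bases, their whole span, in Snhg12 and Dancr. A read in such a snoRNA can also overlap the host, and how those reads were counted is not given. The 0 counts of these rows are therefore not read as absence, nor set against the Snhg1 rows.

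Genes around the snoRNA hosts were read for comparison. Zbtb37, which overlaps Gas5 on the other strand, had 4.47 and 5.72 CPM in MT against 5.02 and 6.87 CPM in MB. Wdr74, a ribosome biogenesis factor next to Snhg1, fell, with 26.3 and 44.0 CPM in MT against 107 and 102 CPM in MB (log2 fold change -1.59, SE 0.44, adjusted p = 0.0321, edgeR), and without MT replicate 1 its log2 fold change was -1.31 (adjusted p = 0.386). Trnau1ap, next to Snhg12, had a log2 fold change of -0.59 (SE 0.48, adjusted p = 0.424, edgeR).

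Of the other nuclear lncRNAs on a list of 9, 8 were tested and 1 was called, higher, beside 11% of all genes tested. This was Oip5os1, listed as 1700020I14Rik, which rose from 22.8 and 61.3 CPM in MB to 255 and 250 CPM in MT (log2 fold change 2.62, SE 0.52, adjusted p = 0.00745, edgeR). The list's median log2 fold change was 1.01, beside 0.07 for all genes, and 7 of the 8 values were positive. Pvt1 went the other way, with 5.14 and 6.36 CPM in MT against 13.0 and 22.8 CPM in MB. It did not pass (log2 fold change -1.62, SE 0.58, adjusted p = 0.0773, edgeR). Tug1, an abundant lncRNA, had 154 and 158 CPM in MT but 21.2 and 192 CPM in MB, and Kcnq1ot1, the antisense RNA of an imprinted domain, had 43.5 and 30.1 CPM in MT against 4.41 and 39.7 CPM in MB. Neither passed (adjusted p = 0.598 and 0.497, edgeR). In both, as in Gas5, the MT values were closer together than the MB replicates.

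The mRNAs of proteins of the same nuclear bodies were mostly lower in MT or not called. Protein was not measured, so a protein said here or below to fall or rise stands for its mRNA. Of 14 paraspeckle proteins tested, 6 fell and 1 rose, with a median log2 fold change of -1.18. Sfpq, a core paraspeckle protein that binds Neat1, fell from 100.1 and 83.04 CPM in MB to 4.39 and 20.0 CPM in MT (log2 fold change -2.98, SE 0.65, adjusted p = 0.0109, edgeR). Rbm14, needed for paraspeckle assembly, fell from 173 and 145 CPM to 13.998 and 34.5 CPM, and Nudt21, a cleavage factor that sets poly(A) sites, from 167 and 113 CPM to 28.2 and 51.5 CPM. Zc3h6 rose, from 0.12 and 0.72 CPM in MB (1 and 6 counts) to 7.52 and 2.67 CPM, and this higher call was lost (0 called) without MT replicate 1, without either MB replicate and in 3 of the other alternatives. Of 15 speckle and SR splicing proteins, 2 fell, Srsf7 (log2 fold change -2.03, SE 0.46) and Srsf1 (log2 fold change -1.66, SE 0.45), and 13 were not called, with a median of -1.06. Over all genes tested, 6.86% were called lower and 11% higher. Son, a scaffold of speckles, had a log2 fold change of -0.07 (SE 0.44, adjusted p = 0.930, edgeR).

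The other snoRNA hosts, of which 14 of 17 were matched and 12 tested, gave 4 calls, all lower in MT. The share called lower over all genes tested was 6.86%, for this and the following lists. Zfas1 fell from 55.1 and 79.1 CPM in MB to 6.33 and 21.4 CPM in MT (log2 fold change -2.31, SE 0.59, adjusted p = 0.0218, edgeR). Snhg15 fell from 27.6 and 37.7 CPM to 5.81 and 9.16 CPM, Snhg8 from 29.4 and 41.3 CPM to 3.50 and 13.6 CPM, and Epb41l4aos from 11.03 and 18.6 CPM to 1.86 and 2.92 CPM. The list's median log2 fold change was -1.58. Of the mRNAs of 14 proteins of snoRNA particles, 8 fell and none rose, with a median of -2.03. They included Fbl, the methyltransferase of C/D particles (log2 fold change -2.53, SE 0.51), Dkc1 (-2.38, SE 0.57) and Gar1 (-2.80, SE 0.52) of the H/ACA particles, and Ruvbl2, an assembly factor (-2.32, SE 0.48). Of 12 TOP mRNAs that do not encode ribosomal proteins, 5 fell and none rose, among them Hnrnpa1 (log2 fold change -2.92, SE 0.53) Npm1 (-2.40, SE 0.71) and Rack1 (-2.17, SE 0.62), and the median was -1.80. Of 10 nonsense-mediated decay factors 0 were called by edgeR or DESeq2, with 1 and 2 at a nominal p under 0.05, and the median was -0.54. Smg5, among the most abundant of them, had a log2 fold change of -0.94 (SE 0.50). Of 13 RNAs without a poly(A) tail, 4 were tested and 1 fell, Rpph1, the RNA of RNase P, from 8.09 and 8.32 CPM in MB to 0.30 and 1.02 CPM in MT (log2 fold change -3.71, SE 0.89).

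Several list counts turned on single libraries. Without MT replicate 1, 0 snoRNA hosts, 2 snoRNP proteins, 0 TOP mRNAs, 0 paraspeckle proteins, 0 speckle and SR proteins and 0 RNAs without a poly(A) tail were called lower by edgeR, while over all genes 1232 were called in place of 2312. Oip5os1 was called there too, with a log2 fold change of 2.54. Without MB replicate 2, 8 speckle and SR proteins, 8 TOP mRNAs and 2 decay factors were called lower and 3 nuclear lncRNAs, 1 speckle and SR protein and 1 decay factor higher. Without MB replicate 1, 5 speckle and SR proteins and 1 nuclear lncRNA were lower, 0 RNAs without a poly(A) tail were lower and 1 snoRNA host was higher. Without MT replicate 2, 2 snoRNA hosts and 2 nuclear lncRNAs were higher and 2 RNAs without a poly(A) tail lower.

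**Figure D2:**
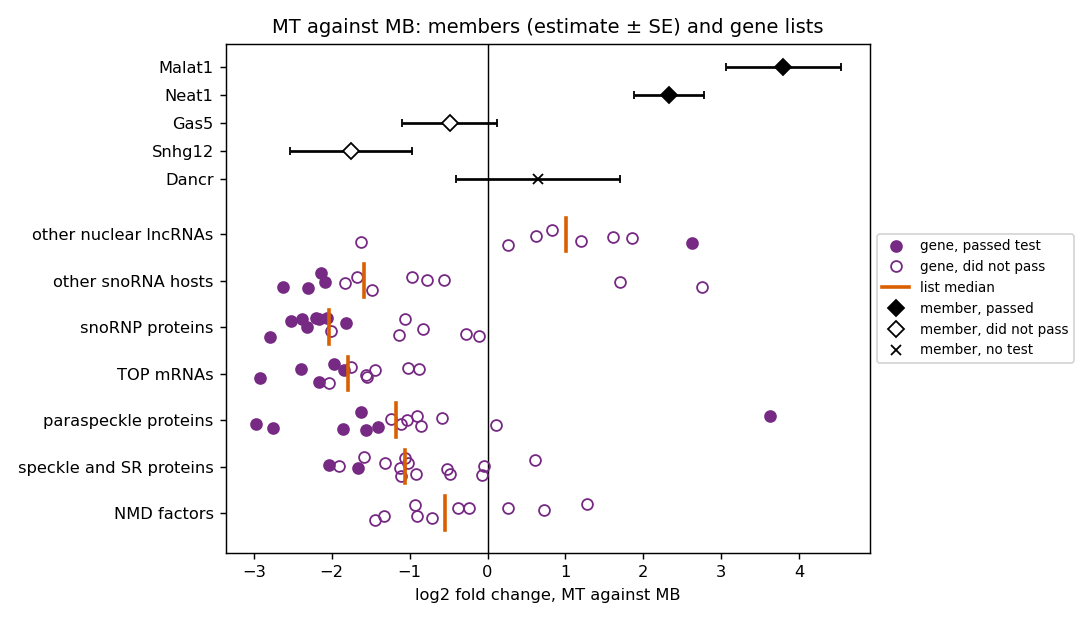
Log2 fold change in MT over MB. Diamonds are members with their SE (filled where the test was passed, a cross for Dancr, which had no test), circles are genes of each list (filled where passed) and orange bars are list medians. Malat1 at 3.80 and Neat1 at 2.33 lie to the right, and the snoRNP proteins, with a median of -2.03, to the left.

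None of the 4 tested members passed the test with lactate. In lactate-treated MB, Malat1 had 54.8 and 133.5 CPM, Neat1 14.6 and 33.6 CPM, Gas5 100.7 and 190.2 CPM and Snhg12 7.55 and 11.6 CPM. The ranges of the lactate-treated and control MB libraries overlapped for each. The log2 fold change was 0.04 for Malat1 (95% interval -1.68 to 1.76), 0.06 for Neat1 (-1.35 to 1.48), 0.25 for Gas5 (-1.64 to 2.15) and 0.04 for Snhg12 (-1.20 to 1.28). None of the 4 was called by edgeR at an adjusted p under 0.05 or at a nominal p under 0.01, and 0 of 4 had a nominal p under 0.05 by edgeR or DESeq2. Over 11804 genes, 0 (0%) were called by either rule, 5 (0.0424%) had a nominal p under 0.05 by edgeR and 3 by DESeq2, so the background holds no calls. That share is far below what a nominal p under 0.05 gives when no gene changes, so this test without a replicate block was conservative. Deviations of same-numbered lactate and control libraries correlated at 0.704. With a replicate block 166 genes had a nominal p under 0.05, 0 were called, and the members' intervals were narrower, as given below.

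By same-numbered pair, Gas5 was 2.56-fold higher with lactate in replicate 1 and 0.95-fold in replicate 2. Malat1 was 1.31-fold and 0.96-fold, Neat1 0.84-fold and 1.19-fold, and Snhg12 0.84-fold and 1.25-fold. Thus 0 of the 4 were higher in both pairs, beside 22.7% of all genes. Malat1 and Gas5 were close to no change in replicate 2. The share of all genes whose 2 pairs differ in direction was not counted. Replicate 2 was above replicate 1 by 3.31-fold for Malat1, 5.10-fold for Gas5 and 1.63-fold for Neat1 in control MB, and by 2.44-fold, 1.89-fold and 2.30-fold in lactate-treated MB. A rise of over 2-fold from MB replicate 1 to replicate 2 was seen for 16.3% of genes on the log2(CPM + 1) scale. RNAs that normally have no poly(A) tail, a list of 13, summed to 43.3 and 125 CPM in control and lactate-treated MB replicate 1 and to 17.0 and 18.7 CPM in replicate 2, beside the ribosomal RNA shares given above, and their part in the gap was not tested.

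Dancr, which hosts Snora26, was chosen for its rise with lactate, so its pairs are described only. It had 11 counts in control and 46 in lactate-treated MB replicate 1, and 12 and 19 in replicate 2, which were 1.35 and 8.08 CPM, and 1.45 and 3.38 CPM. Both lactate libraries lay above both controls, as did 4.28% of genes tested, and the pairs gave 5.99-fold and 2.34-fold. The lactate-treated replicates were themselves 2.39-fold apart. The described log2 fold change was 1.97 (SE 0.72), and it was 1.28 without lactate-treated replicate 1 and 2.45 without lactate-treated replicate 2.

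**Figure D3:**
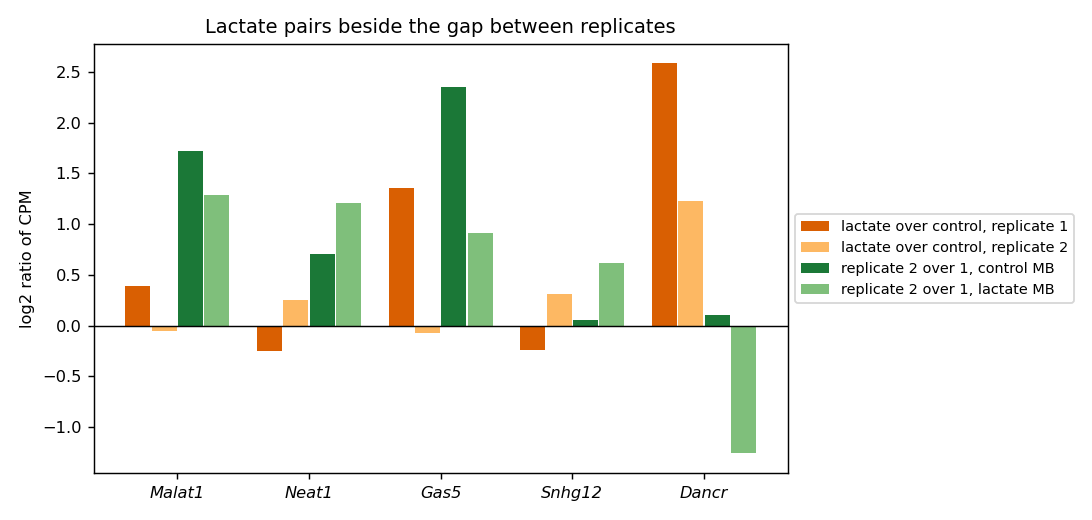
Log2 ratio of CPM for each member, as bars from 0. Orange bars compare lactate-treated with control MB of the same replicate number and green bars compare replicate 2 with replicate 1 within a group. The green bars of Malat1 and Neat1 exceed their orange bars, the tallest Gas5 bar is the gap between control replicates at 2.35, and Dancr has orange bars of 2.58 and 1.22.

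With lactate 0 genes of the lists were called, and 0 had a nominal p under 0.05, by edgeR or DESeq2. The median log2 fold change was -0.003 for all genes, 0.24 for 11 snoRNA hosts, 0.12 for 14 snoRNP proteins, 0.09 for 13 paraspeckle proteins and -0.08 for 6 nuclear lncRNAs, 0.04 for 15 speckle and SR proteins, 0.13 for 12 TOP mRNAs and 0.001 for 10 decay factors. The RNAs without a poly(A) tail had the highest median, 1.22 over 5 tested. Rn7sk, a small nuclear RNA that holds a transcription elongation factor, had 27.8 and 3.98 CPM in control and 66.4 and 4.98 CPM in lactate-treated MB, with replicate 1 high in both groups.

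In GAS, Neat1 and Gas5 had little spread between libraries, and Malat1 and Snhg12 had more. Neat1 had 2510, 2517 and 2485 CPM, a mean of 2504 ± 17.0 (SD, n = 3). Malat1 had 582, 643 and 702 CPM (mean 642 ± 59.98, SD), Gas5 had 33.4, 33.0 and 33.3 CPM (mean 33.2 ± 0.23, SD) and Snhg12 had 3.50, 2.23 and 3.37 CPM (mean 3.03 ± 0.70, SD). The coefficient of variation was 0.679% for Neat1, 0.693% for Gas5, 9.34% for Malat1 and 23.1% for Snhg12, which had 44 to 69 counts. The Snhg12 snoRNA Snora16a had 6, 0 and 1 counts, and the Snhg1 and Gas5 snoRNA rows had 0, which allows up to 0.152 to 0.156 CPM. This again covers counting error only, and not reads that also overlap a host.

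Per length the order differed between tissue and culture. In RPKM (CPM per kilobase of exon), Neat1 had 121 ± 0.819 (SD) and Malat1 92.0 ± 8.59 (SD) in GAS, followed by Gas5 at 8.83 and Snhg12 at 1.26. Neat1 was above Malat1 in each of the 3 GAS libraries, by 1.19-fold to 1.45-fold. In all 6 cultured libraries Malat1 was above Neat1, by 7.21-fold to 47.7-fold, with 47.7-fold in MT replicate 1 and 17.1-fold in MT replicate 2. Neat1 was divided by 20771 bases in every library, the length that includes its long form. Its RPKM, fold gaps, place in the orders and ranks depend on that length. A level per length of the short polyadenylated form was not calculated. The RPKM, orders and ranks of Gas5, Snhg12 and Dancr likewise depend on the union of exons, 3760, 2402 and 2347 bases. With the longest transcript in its place, Gas5 had 13.0 and Snhg12 1.97 RPKM in GAS, and that length was not applied to the cultured cells. In MT the mean levels were 170 RPKM for Malat1, 21.9 for Gas5, 5.47 for Neat1, 1.17 for Snhg12 and 0.87 for Dancr. In MB, Gas5 led with a mean of 31.9 RPKM, ahead of Malat1 at 12.9, Snhg12 at 3.79, Neat1 at 1.09 and Dancr at 0.60. The ranges of Gas5 (10.5 to 53.3 RPKM) and Malat1 (6.00 to 19.8 RPKM) overlapped between replicates, although Gas5 was above Malat1 in each MB library, and the other neighbours in that order did not overlap.

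Among the lncRNAs with a count in GAS (1914 genes), Neat1 ranked 3, Malat1 6, Gas5 47 and Snhg12 251 by mean RPKM. In MT, with 3915 such genes, Malat1 ranked 3, Gas5 18 and Neat1 73. In MB, with 1713, Gas5 ranked 15, Malat1 25, Snhg12 58 and Neat1 187. By mean RPKM Neat1 lay above 98.5% of all genes with a count in GAS but above 44.3% in MB. Across groups Neat1 was highest in GAS and lowest in both MB groups, whereas Malat1 was highest in MT replicate 1, and GAS (582 to 702 CPM) lay just under MT replicate 2 (708 CPM). CPM was scaled within GAS and within the cultured cells, so a level set across them has no test. The RNAs without a poly(A) tail summed to 0.260 to 0.711 CPM in GAS and to 8.04 to 125 CPM in the cultured libraries, and tissue and protocol cannot be told apart in that difference or in those of the members.

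**Figure D4:**
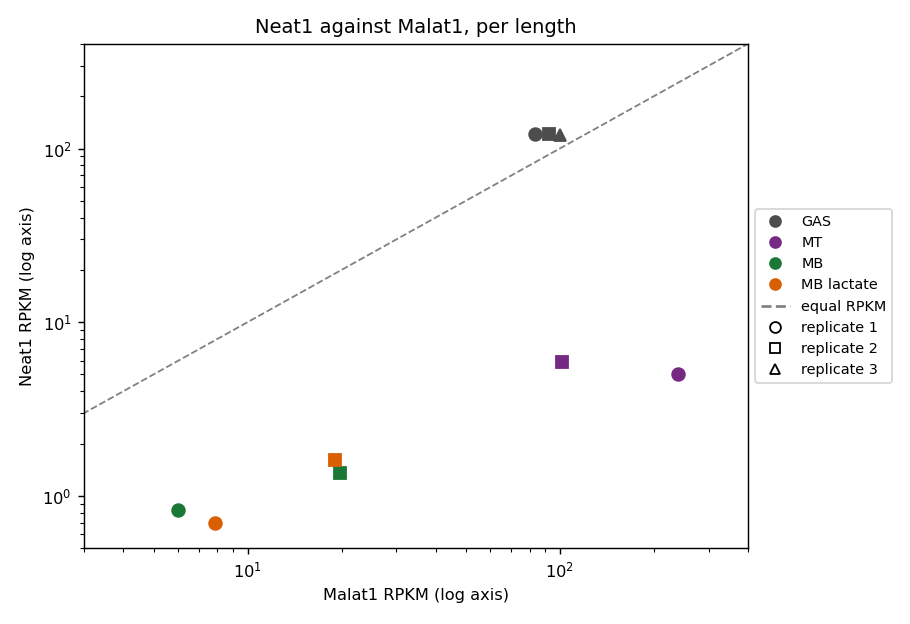
Neat1 against Malat1 in RPKM, both axes logarithmic, with 1 point a library, coloured by group and shaped by replicate number. The 3 GAS libraries lie above the dashed line of equal RPKM and the 6 cultured libraries lie below it. Neat1 is divided by 20771 bases, which include its long form.

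Over the 6 cultured libraries the genes most like each member were read as Pearson's r of log2(CPM + 1), among genes with a mean of at least 10 CPM. For Malat1 they were Ginm1 (r = 0.998), Sec22b (0.997) and Pcmtd2 (0.997). For Neat1 they included Fndc3b (0.998) and Dnajc18 (0.998). They were G2e3 (0.999), Gnai3 (0.998) and Cep295 (0.996) for Gas5, and Setdb1 (0.999), Champ1 (0.998) and Srsf6 (0.997) for Snhg12. Dancr had no gene as close, with Mlkl at 0.938. These are the highest of 8876 or 8877 genes over 6 points that share groups and library depth, and they are given as descriptions. Srsf6, an SR splicing factor, had 107 and 274 CPM in MT against 516 and 607 CPM in MB, and G2e3, a ubiquitin ligase, had 5.51 and 64.2 CPM in the MB libraries. Among the members themselves Malat1 and Neat1 were alike (r = 0.960), Malat1 and Snhg12 were opposed (r = -0.852), and Gas5 was close to 0 with Malat1 (0.057) and with Neat1 (0.001).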

How the data were processed

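The deposited files hold raw read counts per gene, 1 file a library. Per the labels and methods, the authors trimmed reads with Trim Galore 0.6.6, aligned them to mm10 with HISAT2 2.2.1 and counted them with featureCounts (Subread 2.0.1). The annotation release, strand setting and treatment of reads that map to several places or overlap several genes are not given in the sources used here. Symbols, lengths and snoRNA positions came from GENCODE M21, which held 45229 of 46078 identifiers in the cultured files and 36429 of 38293 in the GAS files.

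Counts were tested with edgeR 4.0.16 (R 4.3.3, filterByExpr, TMM, quasi-likelihood test, Benjamini-Hochberg over all genes), without a replicate block, on the 4 libraries compared. The code was run on simulated counts with a capped dispersion and no shared replicate effect. That run does not show how the test behaves at the spread of these libraries. SE is the log2 fold change divided by the square root of F, and 95% intervals use the test's degrees of freedom. CPM was scaled by TMM within GAS and within the 6 cultured libraries, and RPKM used the union of exons. DESeq2 1.42.0 was an alternative.

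Members and lists were chosen with earlier results of these data known. All members were named, with up to 4 genes a list: those called in MT against MB with the largest change and no overlap between groups, and otherwise the most abundant. Son, Tug1, Kcnq1ot1, Pvt1, Wdr74, Rn7sk and the neighbour genes are named for their role or as singled-out cases after their values were seen. Likeness was read with a pseudocount of 1. Some genes that these rules name are not reported here.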

Additional observations from a re-analysis of the deposited data

How the results depend on the processing

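Malat1 and Neat1 were called in MT against MB under all alternatives, with log2 fold changes of 2.95 to 4.68 and 1.97 to 2.56, and the count of members called ranged from 2 to 3 (3 without MT replicate 2). No member was called with lactate in any of 12 alternatives, although over all genes 2 were called without MB replicate 1. Replicate numbers are not stated to mark a shared batch. Deviations of same-numbered libraries correlated at -0.118 (MT and MB, 12832 genes) and 0.704 (lactate and control MB, 11726 genes). With a replicate block 2 members were called in MT against MB and 0 with lactate, and 2271 genes in place of 2312. The block narrowed the lactate intervals, to -0.47 to 0.73 for Malat1, -0.70 to 0.66 for Neat1, -0.18 to 1.37 for Gas5 and -0.79 to 0.81 for Snhg12, and 166 genes in place of 5 had a nominal p under 0.05. Crossing the numbers, chosen after the data were seen, gave 2059 genes and 2 members.

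Leaving out libraries moved the rest in MT against MB, to -1.33 to 0.91 for Gas5, -3.02 to -1.10 for Snhg12 and -1.89 to 1.31 for Dancr. Gas5 turned to 0.91 without MB replicate 2. With lactate, Malat1 turned to -0.52 without MB replicate 1 and -0.79 without lactate-treated replicate 2 (range -0.79 to 1.16), Neat1 to -0.19 and -0.71 (range -0.71 to 0.58), Gas5 to -0.43 and -0.33 (range -0.43 to 1.87), and Snhg12 to -0.34 without lactate-treated replicate 2 (range -0.34 to 0.36). The replicate block turned Neat1 to -0.018, and the block with 6 libraries in one fit turned Snhg12 to -0.044. With fewer libraries the cause was not tested.

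Calls in MT against MB over single left-out libraries ranged from 0 to 2 higher and 0 to 6 lower for snoRNA hosts, 1 to 3 higher and 0 to 1 lower for nuclear lncRNAs, 0 to 1 higher and 0 to 7 lower for paraspeckle proteins, 0 to 1 higher and 0 to 8 lower for speckle and SR proteins, 2 to 11 lower for snoRNP proteins, 0 to 1 higher and 0 to 2 lower for decay factors, 0 to 8 lower for TOP mRNAs and 0 to 2 lower for RNAs without poly(A). With the replicate block the lower calls were 3 for paraspeckle proteins and 3 for TOP mRNAs, and 1 decay factor was higher. With DESeq2 they were 1 nuclear lncRNA, 5 speckle and SR proteins and 9 TOP mRNAs. With 6 libraries and the block they were 1 nuclear lncRNA, 4 speckle and SR proteins and 3 TOP mRNAs, and no paraspeckle protein was higher (0), as with no filter and with at least 10 counts in every library, where 0 RNAs without poly(A) were lower. Crossed numbers gave 8 TOP mRNAs. In GAS, the longest transcript in place of the union of exons gave 13.0 RPKM for Gas5 and 1.97 for Snhg12. Neat1 has 20771 bases by either length, so its RPKM could not move. Low counts limit Snhg12 and Dancr.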
